A study of Drosophila melanogaster with 12 samples.

Results

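The comparison described here is the BRAT RIP against the control RIP in early *Drosophila melanogaster* embryos, which asks which mRNAs co-purify with the RNA-binding protein Brain Tumor (BRAT). It was made up of 6 of the 12 processed samples of the series: the 3 anti-BRAT samples, and the 3 control samples that were normalized together with them, matched by replicate number. In every sample the embryos were of the w1118 strain, a wild-type laboratory stock with white eyes, and were collected 0 to 3 h after egg-laying. For the BRAT RIP, whole-embryo extract was incubated with a synthetic antigen-binding fragment (Fab) against BRAT, and for the control RIP with a control Fab. The remaining 6 samples were a PUM RIP, made with a Fab against Pumilio, and a second normalization of the same 3 control preparations. Of the 7186 array features with values in all 12 columns, each a transcript known by its FlyBase identifier, all were tested.

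BRAT belongs to the TRIM-NHL family, whose members regulate mRNAs after transcription. Its NHL domain, a propeller-shaped fold, binds RNA directly. In the early embryo, before the zygotic genome takes over, development runs on mRNAs that the mother loaded into the egg, and BRAT is known there as a repressor of maternal *hunchback* mRNA, which must stay silent in the posterior for an abdomen to form. A RIP recovers the protein together with the RNA attached to it, either directly or through a partner. An mRNA called higher in the BRAT RIP than in the control RIP is therefore taken to have co-purified with BRAT. Each ratio is relative to the bulk of the features, and binding of the Fab to other proteins was not tested here. The extract pools all cells of the embryo, so strong association in few cells and weak association in many cannot be told apart.

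Enrichment in the BRAT RIP was widespread, and the ratios were spread unevenly around 0. At an adjusted p under 0.05 and at least 1.5-fold, 1376 features (19.1%) were higher in the BRAT RIP, and 1519 (21.1%) were lower (limma, replicate number as a block, Benjamini-Hochberg over all features). Large differences were more often enrichments than depletions, although the most extreme feature of all was a depleted one. Called features at least 2-fold higher in the BRAT RIP numbered 796, against 379 at least 2-fold lower. At 3-fold there were 368 higher and 25 lower, at 4-fold 213 and 4, and at 8-fold 34 and 1. The median called enrichment was 2.16-fold, whereas the median called depletion was 1.77-fold.

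Log2 ratios, BRAT RIP over control RIP, had a median of -0.15, and 41.4% of them were above 0. Their middle spanned -0.54 to 0.40 from the 25th to the 75th percentile. The 5th percentile was -1.02 and the 95th was 1.60, while the 1st was -1.40 and the 99th was 2.58. The bulk of the features therefore lay slightly on the control side of 0, and a long upper tail offset it, giving a mean of 0.01. Setting the median of each replicate's ratios to 0 moved the split between the directions: 1602 features were then higher and 1036 lower, so that 60.7% of the calls were enrichments, against 47.5% as deposited. All 1376 enrichments were among those 1602.

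**Figure D1:**
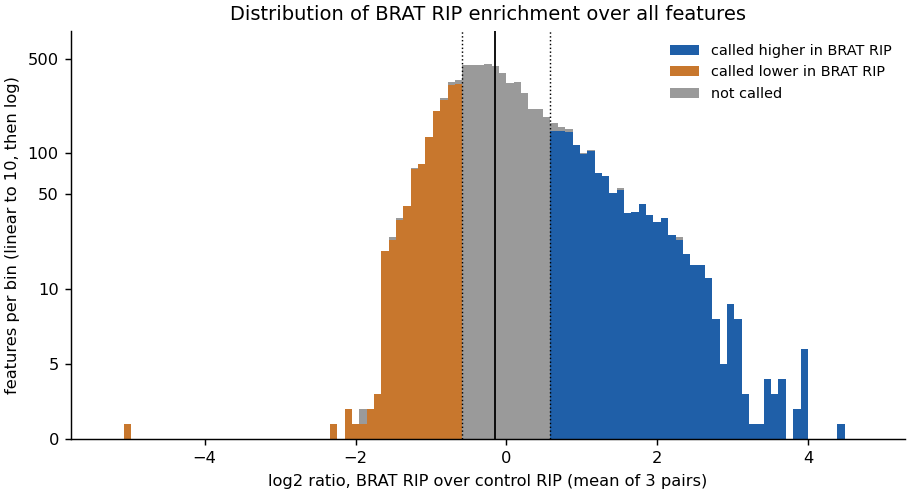
Number of features (vertical axis, linear to 10 and logarithmic above) by the mean of the 3 paired log2 ratios, BRAT RIP over control RIP (horizontal axis). Blue marks enrichment calls, orange marks depletion calls and gray marks the rest; the solid line is the median, -0.15, the dotted lines mark 1.5-fold, and the ratios run from -4.99 to 4.43, with 213 features called at least 4-fold higher and 4 at least 4-fold lower.

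The threshold cut through a continuous distribution. On the enriched side, the features nearest to it with an adjusted p under 0.05 were 1.5002-fold and 1.5008-fold higher just inside, and 1.4996-fold and 1.4994-fold just outside. On the depleted side they were 1.5001-fold and 1.5002-fold lower inside, and both 1.4996-fold outside. A further 503 features passed the p-value threshold but not the fold threshold. In the other direction, 43 features were at least 1.5-fold higher and 50 at least 1.5-fold lower without passing the test. Of these 93, the 3 pairs of 58 differed in sign, and their median standard error was 0.29, against 0.18 among called features. The feature with the largest ratio among the 93 had BRAT signals of 13.00, 12.98 and 12.55 on the log2 scale, against control signals of 5.22, 12.63 and 13.73. One control sample, that of replicate 1, was far below the other two, and the mean log2 ratio of 2.32 had a standard error of 1.39 (adjusted p = 0.20, limma).

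The paired ratios of single replicates spread alike. Replicate 1 had a median log2 ratio of -0.17 and an SD over features of 0.91, replicate 2 had -0.09 and 0.85, and replicate 3 had -0.12 and 0.88. Across features, which are not independent replicates, Pearson's r between the ratios of replicates 1 and 2 was 0.80, that of replicates 1 and 3 was 0.77 and that of replicates 2 and 3 was 0.80. Replicate 3 carried the dye Cy5 in both groups, and replicates 1 and 2 carried Cy3. Of the 1376 enriched features, 1375 had a Cy5 ratio above 0, and 1212 were at least 1.5-fold higher in that pair alone. Of the 1519 depleted features, 1518 had a Cy5 ratio below 0 and 1219 were at least 1.5-fold lower. The median ratio of the enriched features was 1.15 in the Cy5 pair and 1.14 over the Cy3 pairs. These pairs are part of the fit that made the calls and are given as a description.

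All 3 pairs reached 1.5-fold for a larger share of the enriched features than of the depleted ones. This is given as a description, as the same pairs made the calls. The called enrichments were also larger at the median, 2.16-fold against 1.77-fold, and the part of size in these shares was not tested. All 3 BRAT signals lay above all 3 control signals for 1425 features (19.8% of those tested), and below them for 1864 (25.9%). Among called features this held for 1196 of the enriched ones (86.9%) and for 1260 of the depleted ones (82.9%). Each of the 3 pairs reached 1.5-fold for 952 enriched features (69.2%) and 743 depleted ones (48.9%). For 534 enriched features, even the weakest pair reached 2-fold, as did the weakest pair of 139 depleted features. When each replicate was left out in turn, 1064 enrichments (77.3%) and 927 depletions (61.0%) were called in all 3 fits.

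The directions also differed in how well the ranking of features recurred between replicates. From each pair, the 100 features with the highest ratio and the 100 with the lowest were listed. The highest 100 shared 55, 53 and 62 features between pairs of lists, and 40 were in all 3 lists. The lowest 100 shared 22, 21 and 27, and 11 were in all 3. With 500 features per list, 303 of the highest (60.6%) and 110 of the lowest (22.0%) were in all 3 lists, and with 1000 per list, 610 (61.0%) and 324 (32.4%). The ratios at the lower end lay closer together, and these shares carry no test.

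**Figure D2:**
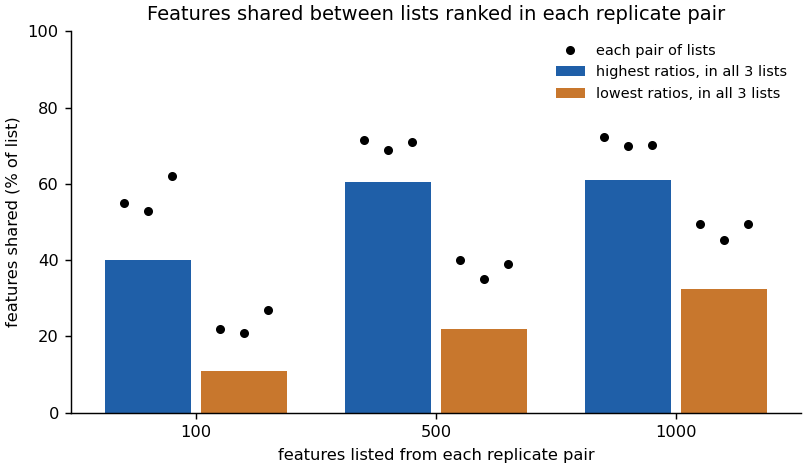
Share of features common to lists taken separately from each replicate pair (vertical axis, % of the list), by the number of features listed (horizontal axis). Bars give the features found in all 3 lists, blue for the highest and orange for the lowest log2 ratios, and black points give the 3 pairs of lists; of the 500 highest, 60.6% recurred in all 3 lists, and of the 500 lowest, 22.0%.

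At the top of the ranking, the 12 called features with the highest ratios were 12.5-fold to 21.6-fold higher in the BRAT RIP, with standard errors of 0.16 to 0.24 on the log2 scale and adjusted p of 2.0e-05 to 4.4e-05 (limma). All 12 were among the 100 highest of each of the 3 pairs, and none ranked below 25 in any pair. The 12 were chosen by the mean of these same 3 ratios, so high ranks follow largely from the choice. The first was FBtr0078699, with BRAT signals of 14.17, 13.66 and 13.81 and control signals of 9.69, 9.45 and 9.21. Its samples were well separated, the lowest BRAT signal being far above the highest control signal. The second, FBtr0074464, had BRAT signals of 14.58, 14.19 and 14.25 and control signals of 10.52, 10.00 and 10.51, a log2 ratio of 4.00 with a standard error of 0.17. Neither of these was enriched with PUM, where the log2 ratio to the same control preparations was -0.33 for the first (adjusted p = 0.23) and -0.85 for the second (adjusted p = 0.038). The difference between the enrichments, BRAT minus PUM, was 4.77 (SE 0.19) and 4.85 (SE 0.19), both with an adjusted p of 1.4e-06 by limma. Both features were chosen for their high BRAT ratios, which are part of the difference. Its size and p-value are therefore given as a description. Among the 12, PUM enrichment passed the test for 4, with log2 ratios of 0.64, 0.86, 0.88 and 1.13, and PUM depletion passed it for 1. All of these ratios share their control preparations with the BRAT ratios.

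At the bottom, the 12 called features with the lowest ratios were 3.14-fold to 31.8-fold lower in the BRAT RIP, and 5 of them were among the 100 lowest of every pair. These 12 too were chosen by the mean of the same paired ratios. FBtr0073224 stood alone, with BRAT signals of 8.22, 9.27 and 9.04 and control signals of 15.40, 13.07 and 13.03. The replicate 1 control was the highest of these, and the standard error of the log2 ratio of -4.99 was 0.57 (adjusted p = 0.00042), so its size was the least certain of the 24. Without replicate 1 the log2 ratio was -3.90, and without replicate 2 it was -5.59. With a trended, robust prior it did not pass (adjusted p = 0.063). FBtr0078472 came next, with BRAT signals of 10.76, 10.95 and 10.82 and control signals of 13.01, 13.69 and 12.73, a log2 ratio of -2.30 with a standard error of 0.20. Against the same control preparations, the PUM RIP had log2 ratios of -4.61 and -2.12 for these features. Both comparisons share their controls, so a high control value lowers both ratios.

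The share of features called in each direction moved with the array signal. Features were divided into 5 equal bins by their mean control signal, which is a measure of hybridization and not of mRNA amounts between features. In the lowest bin, 25.5% were called as enriched with BRAT and 9.46% as depleted. In the highest bin, 11.6% were enriched and 33.7% depleted. The control signal is also the denominator of the ratio, and so the same was done with the mean PUM RIP signal, which was normalized apart from the BRAT samples. By that measure 23.2% were enriched and 13.7% depleted in the lowest bin, and 12.6% were enriched and 29.5% depleted in the highest. By either measure the lowest bin held the most enriched and the fewest depleted features, and the highest bin the reverse, with a smaller range by PUM RIP signal. Signals within 10% of the limit of a 16-bit scanner, which is 16 on the log2 scale, occurred in 23 features, of which 13 were called higher and 3 lower. The part of signal compression in these shares was not tested.

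**Figure D3:**
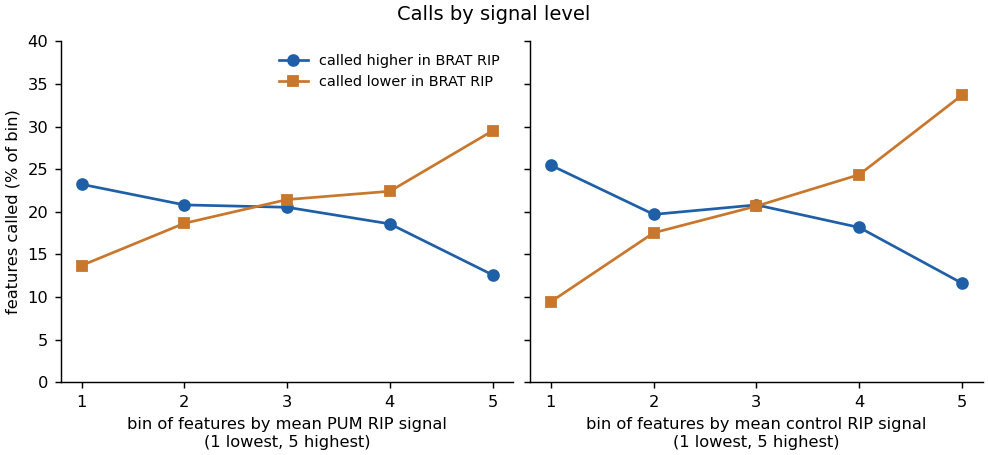
Share of features called (vertical axis, %) in each of 5 equal bins of features by mean log2 signal (horizontal axis, 1 lowest and 5 highest), with PUM RIP signal on the left and control RIP signal on the right. Blue points are enrichment calls and orange squares depletion calls; by control signal the enrichment calls run from 25.5% in the lowest bin to 11.6% in the highest, and the depletion calls from 9.46% to 33.7%.

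Gene names could be given to 37 features, 0.51% of those tested, through transcript identifiers listed as synonyms in a RefSeq gene table (Release 6 assembly). For 30 of them the synonym is an open reading frame on a named transcript, and 24 features are paired with more than 1 gene. Such dicistronic mRNAs carry separate coding sequences one after another, and their signal cannot be assigned to any one gene. HDAC3, fend, NaPi-III, SuUR, rdx and CG16974 were matched to 1 gene each, but also through an open reading frame on a transcript. Whether those transcripts carry another coding sequence was not checked, so their signal may not belong to the named gene alone. These 37 were set by the annotation and are not a sample of the array. The mRNAs that the study itself names, such as *hb*, *brat*, *Myc* and *zld*, were not matched to features here. Nor were the markers of early embryos, eggshell or later tissues, so the label of the tissue was not checked. Of the fixed gene lists, only the GPI anchor list (PIG-M) and the nuclear oxidative phosphorylation list (ND-MNLL) had a matched member, and no list is described as a group.

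Of the 37, 7 (18.9%) were higher and 6 (16.2%) lower in the BRAT RIP, close to the 19.1% and 21.1% of all features. Their median log2 ratio was -0.12. The groups did not overlap for 7 features with BRAT above (19.8% of all features) and for 8 with BRAT below (25.9%). Standard errors ran from 0.16 to 0.32, with a median of 0.17.

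**Figure D4:**
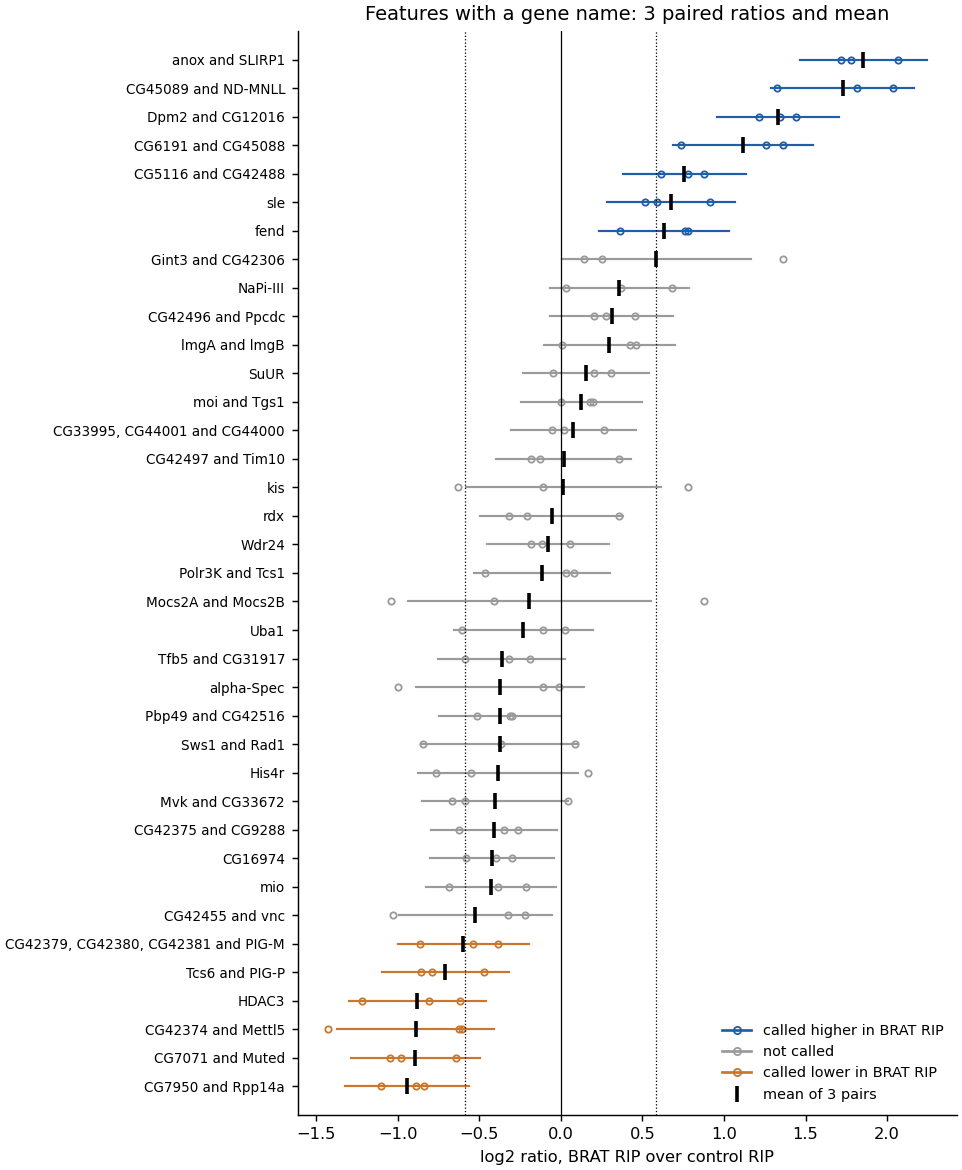
Log2 ratio, BRAT RIP over control RIP (horizontal axis), for the 37 features with a gene name, ordered by their mean. Open circles are the 3 paired ratios, ticks their mean, horizontal lines 95% confidence intervals from the moderated fit and dotted lines 1.5-fold; 7 features in blue were called higher, 6 in orange lower, and the 24 in gray had means between -0.52 and 0.59.

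The named feature with the highest ratio was the mRNA of anox and SLIRP1, which encodes an acyl-CoA-binding protein with ankyrin repeats and a homolog of the mammalian mitochondrial RNA-binding protein SLIRP. Its signals were 14.40, 14.12 and 14.16 in the BRAT RIP, against 12.33, 12.34 and 12.44 in the control RIP. The groups were far apart and tight, giving a 3.62-fold enrichment (log2 ratio 1.86, SE 0.17, adjusted p = 0.000155), the 262nd highest ratio of the features tested. With PUM the log2 ratio was -0.44 (SE 0.26), with paired ratios of 0.07, -0.16 and -1.23. The difference between the enrichments was 2.29 (SE 0.24, adjusted p = 6.7e-05, limma). Here and for the other called named features, the BRAT ratio that made the call is part of this difference. Its p-value is therefore given as a description.

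Next came the mRNA of CG45089 and ND-MNLL, a subunit of respiratory complex I, with signals of 12.88, 13.49 and 13.15 in the BRAT RIP and 10.84, 11.67 and 11.83 in the control RIP. The replicate 1 control was the lowest, and every BRAT signal was above every control signal. The enrichment was 3.31-fold (log2 ratio 1.73, SE 0.19, adjusted p = 0.00037). With PUM the log2 ratio was -0.51 (SE 0.18), a difference of 2.24 (SE 0.19, adjusted p = 2.5e-05). Another mRNA with a mitochondrial product did not pass the test: CG42497 and Tim10, a chaperone of the inner-membrane import pathway, had a log2 ratio of 0.02 with a 95% confidence interval of -0.40 to 0.43.

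Dpm2 is a subunit of the enzyme that makes dolichol-phosphate mannose, the donor of mannose for N-glycans and for the glycosylphosphatidylinositol (GPI) anchor, a lipid that tethers proteins to the cell surface. The mRNA it shares with CG12016 had signals of 11.93, 11.63 and 11.15 in the BRAT RIP and 10.72, 10.29 and 9.71 in the control RIP. All 3 pairs differed by about as much, and the enrichment was 2.52-fold (log2 ratio 1.33, SE 0.16, adjusted p = 0.00060). Among the 13 called named features it differed least from the PUM RIP, where the log2 ratio was 1.13 (SE 0.16, adjusted p = 0.0074), and the difference of 0.20 (SE 0.19) did not pass the test (adjusted p = 0.42).

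PIG-P, a subunit of the enzyme that starts GPI synthesis, shares an mRNA with Tcs6, a component of the complex that makes the t6A modification of tRNA. This mRNA was lower in the BRAT RIP, with signals of 12.24, 11.85 and 11.92, against 12.71, 12.70 and 12.72 in the control RIP. The control values were nearly identical, and the depletion was 1.63-fold (log2 ratio -0.71, SE 0.17, adjusted p = 0.011). It was no longer called with ratios centred on their median, where the log2 ratio was -0.58, or without replicate 2, where the adjusted p was 0.061. PIG-M, the mannosyltransferase that adds the first mannose to the anchor, lies on an mRNA with CG42379, CG42380 and CG42381. Its signals were 13.18, 13.41 and 13.27 in the BRAT RIP and 13.72, 13.80 and 14.13 in the control RIP, without overlap. The depletion of 1.51-fold (log2 ratio -0.60, SE 0.17, adjusted p = 0.024) was just past the threshold, and was lost with centred ratios (-0.47), with cyclic loess (-0.55), without replicate 1 (adjusted p = 0.051) and without replicate 3 (-0.46).

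The other 4 enriched features were CG6191 with CG45088, CG5116 with CG42488, sle and fend. CG6191 and CG45088 had signals of 12.32, 11.98 and 12.05 in the BRAT RIP and 10.96, 11.24 and 10.79 in the control RIP, a 2.17-fold enrichment (log2 ratio 1.12, SE 0.19, adjusted p = 0.0024). CG5116 and CG42488 had signals of 13.14, 13.66 and 13.95 in the BRAT RIP and 12.36, 13.04 and 13.07 in the control RIP. Here the pairs differed alike, by 0.78, 0.62 and 0.88, although both groups shifted between replicates. With PUM, the same mRNA went the opposite way, with a log2 ratio of -0.87 (SE 0.21, adjusted p = 0.039), and the difference was 1.63 (SE 0.22, adjusted p = 0.00034).

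The gene sle encodes slender lobes, a nucleolar protein. Its signals of 13.16, 12.97 and 12.53 in the BRAT RIP overlapped the control signals of 12.65, 12.38 and 11.62, yet each BRAT sample was above its own control. The enrichment of 1.59-fold (log2 ratio 0.67, SE 0.17, adjusted p = 0.014) did not pass without replicate 3 (0.55, adjusted p = 0.069). The gene fend was 1.55-fold higher (log2 ratio 0.64, SE 0.17, adjusted p = 0.018), with signals of 11.85, 11.86 and 12.27 in the BRAT RIP and 11.49, 11.10 and 11.49 in the control RIP. This call was lost without replicate 2 (adjusted p = 0.089) and without replicate 3 (adjusted p = 0.075). It was the enriched named feature with more enrichment in the PUM RIP, where the log2 ratio was 1.40 (SE 0.23), a difference of -0.76 (SE 0.27, adjusted p = 0.044).

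**Figure D5:**
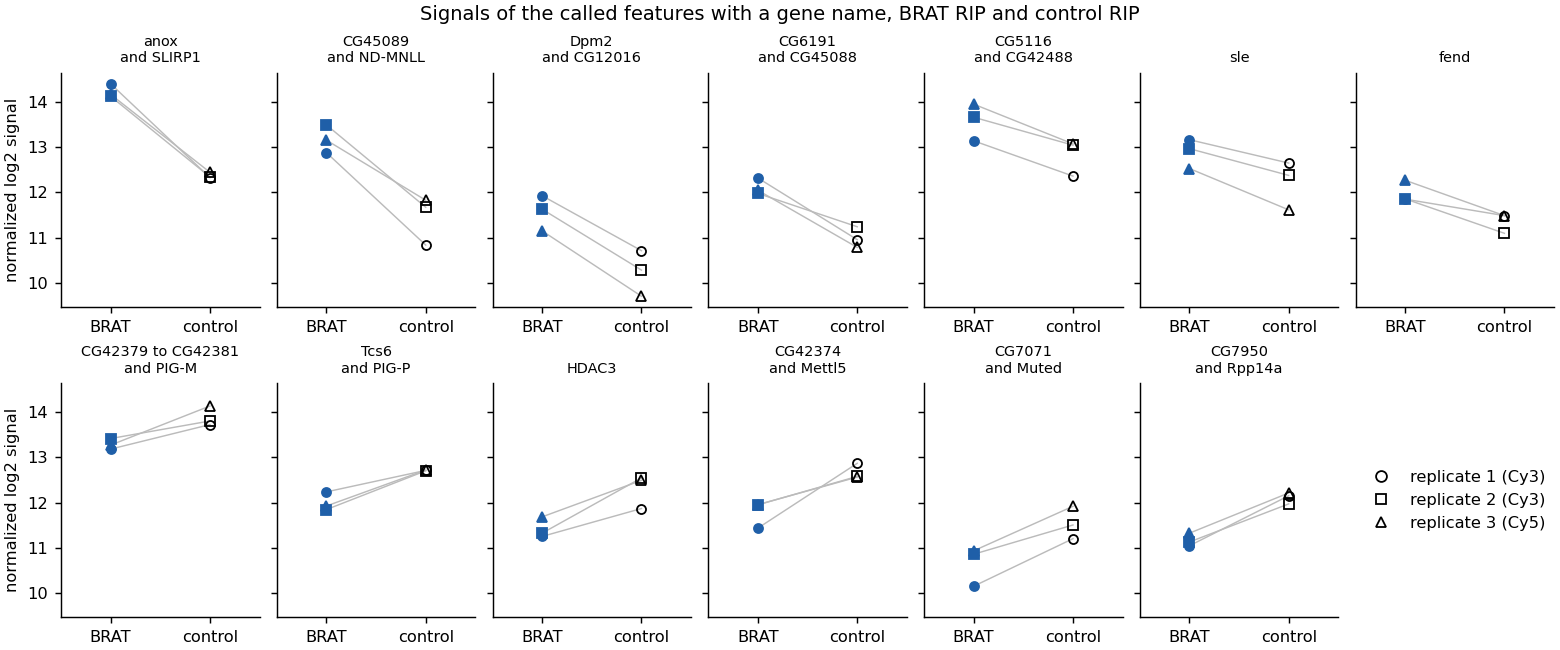
Normalized log2 signal (vertical axis) of the 13 called features with a gene name, BRAT RIP in blue on the left of each panel and control RIP in black on the right. Circles, squares and triangles are replicates 1, 2 and 3, and gray lines join the members of a pair; the lines fall to the control in all 7 panels of the upper row and rise in all 6 of the lower row.

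The remaining depleted features were 4 in number. HDAC3, a histone deacetylase, had signals of 11.25, 11.33 and 11.68 in the BRAT RIP and 11.87, 12.54 and 12.49 in the control RIP, and was 1.84-fold lower (log2 ratio -0.88, SE 0.18, adjusted p = 0.0061). CG7950 and Rpp14a, a protein subunit of ribonucleases P and MRP, had the lowest ratio of the named features, with signals of 11.05, 11.13 and 11.32 in the BRAT RIP and 12.15, 11.97 and 12.21 in the control RIP. The 3 pairs were alike, and the depletion was 1.92-fold (log2 ratio -0.94, SE 0.16, adjusted p = 0.0029). CG42374 and Mettl5, a methyltransferase of 18S ribosomal RNA, had signals of 11.44, 11.95 and 11.95 in the BRAT RIP and 12.87, 12.58 and 12.56 in the control RIP.

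In that last feature replicate 1 differed most, by -1.43, and the mean log2 ratio was -0.89 (SE 0.21, adjusted p = 0.010). CG7071 and Muted, a subunit of the BLOC-1 complex of endosomal sorting, was 1.86-fold lower (log2 ratio -0.89, SE 0.17, adjusted p = 0.0043), with signals of 10.15, 10.86 and 10.94 in the BRAT RIP and 11.20, 11.50 and 11.92 in the control RIP. None of these 4 passed the test with PUM, where the log2 ratios were 0.07 for HDAC3, 0.25 for CG42374 and Mettl5, -0.26 for CG7950 and Rpp14a and -0.29 for CG7071 and Muted. All 4 differences between the enrichments passed, with values of -0.95, -1.14, -0.68 and -0.61 in that order. The BRAT ratio that made each call is part of its difference.

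The remaining 24 named features were not called. Gint3 and CG42306 came closest on the enriched side, with signals of 13.22, 12.26 and 12.52 in the BRAT RIP and 11.86, 12.12 and 12.27 in the control RIP. The groups overlapped, and replicate 1 carried most of the log2 ratio of 0.59 (SE 0.25, adjusted p = 0.088), which was 0.20 without it. The feature passed without replicate 2, with the trended prior and without the dimmest 25% of features. On the depleted side, CG42455 and vnc, which encodes the catalytic subunit of an N-terminal acetyltransferase, had a log2 ratio of -0.52 (95% confidence interval -0.99 to -0.06, adjusted p = 0.064). Its paired ratios were -1.03, -0.22 and -0.32, and without replicate 1 the mean was -0.27.

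Among regulators of growth signaling and cell cycle, mio and Wdr24, subunits of the GATOR2 complex upstream of TOR, had log2 ratios of -0.43 (adjusted p = 0.073) and -0.08 (adjusted p = 0.71). The interval for Wdr24 ran from -0.46 to 0.30, inside 1.5-fold on both sides. The mRNA of lmgA, the APC11 subunit of the anaphase-promoting complex, and lmgB had a ratio of 0.30 (interval -0.11 to 0.70). It was called with PUM at 0.93 (SE 0.17), and the difference of -0.63 passed (adjusted p = 0.027).

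Uncalled features with a role in chromatin or transcription had ratios of -0.38 to 0.15. SuUR, which slows replication of heterochromatin, had a log2 ratio of 0.15 (interval -0.23 to 0.54). The mRNA of moi, a telomere-capping protein, and Tgs1, which trimethylates the caps of small nuclear RNAs, had 0.13 (interval -0.25 to 0.50). The remodeler kis had 0.02 (interval -0.58 to 0.61), with paired ratios of -0.11, 0.78 and -0.63 that ran in both directions. Polr3K, a subunit of RNA polymerase III, and Tcs1, which also acts in t6A synthesis, had -0.12 (interval -0.53 to 0.30). Tfb5, a subunit of the transcription factor TFIIH, with CG31917 had -0.36, and Pbp49, a subunit of the complex that activates small nuclear RNA genes, with CG42516 had -0.37 (adjusted p = 0.091), although its BRAT signals were all below its control signals. His4r, a histone H4 gene used outside replication, had -0.38, with paired ratios of 0.17, -0.77 and -0.55. Without replicate 1, whose ratio was the one above 0, it had -0.66 and was called (adjusted p = 0.035). Cross-hybridization with other H4 genes was not assessed.

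Metabolic and other features complete the set. Mocs2A and Mocs2B, the subunits of molybdopterin synthase, were the least certain, with paired ratios of -0.41, -1.04 and 0.88, a mean of -0.19 and a standard error of 0.32. Without replicate 3, in which the control signal of 8.35 was lower than the other control signals of 9.76 and 9.85, the log2 ratio was -0.73 and was called (adjusted p = 0.037). Mvk, mevalonate kinase, with CG33672 had -0.40, which was -0.63 and called without replicate 1 (adjusted p = 0.040), and Ppcdc, an enzyme of coenzyme A synthesis, with CG42496 had 0.31. The phosphate transporter NaPi-III had 0.36, the ubiquitin-activating enzyme Uba1 had -0.23 and rdx, an adaptor of Cul3 ubiquitin ligases, had -0.06. The cytoskeletal protein alpha-Spec had -0.37, Rad1, a subunit of the DNA damage clamp, with Sws1 had -0.38, CG42375 with CG9288 had -0.41, CG16974 had -0.42 and CG33995 with CG44001 and CG44000 had 0.08. Without replicate 1, alpha-Spec had -0.0583, Sws1 with Rad1 had -0.14 and Uba1 had -0.0415. Of the 37 named features, 6 had a higher enrichment with BRAT than with PUM by the test of the difference (17.2% of all features) and 8 a lower one (22.2%), so these shares too lay near those of all features tested.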

How the data were processed

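RNA from 3 BRAT RIPs and 3 control RIPs was hybridized to custom NimbleGen arrays. The authors normalized the signals by the RMA quantile method, the BRAT samples together with the controls and apart from the PUM samples, and deposited log2 values, 1 per transcript, for 7186 of 17130 rows. The log2 scale was taken from their range. In the paper, testing was limited to transcripts that earlier work had found expressed in embryos of this age. Quantile normalization makes each ratio relative to the bulk of the features.

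BRAT and control columns were compared in limma 3.58.1 (R 4.3.3) with the replicate number as a block. The study's paired test (SAM) was not available here. Features were called at 1.5-fold or more with an adjusted p under 0.05, two-sided. The pairing was taken from the replicate numbers. Deviations of same-numbered samples from their group means correlated at 0.53, 0.30 and 0.46. Such samples also share a dye, and whether a shared preparation or a shared dye lay behind this was not tested. BRAT and PUM enrichments were compared in limma on the 3 differences of paired log2 ratios. Their ratios come from separate normalizations of the same 3 controls. Tests were tried on simulated data with far fewer changed features than were called here, so the trial does not measure their accuracy in these data.

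Members, lists and tests were chosen with earlier results of these data known. Text names go to study genes, list members, the 12 highest and 12 lowest calls and neighbors of the threshold. As few identifiers had gene names, every named feature is given, a choice made after their values were seen. Which samples shared an array, and the annotation release behind the array's transcript identifiers, are not given in the sources used here. Each array took a Cy3 and a Cy5 sample. Only 3 samples per group limit precision. Python 3.11.15 and matplotlib 3.10.9 drew the figures. Alternatives are described under the closing section.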

Additional observations from a re-analysis of the deposited data

How the results depend on the processing

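As counts, the calls stayed within 1.5 times of 1376 higher and 1519 lower features under each alternative except the following. A 2-fold threshold left 796 higher and 379 lower, and the fit without the replicate block gave 931 lower. That fit gave 1036 higher features, within 1.5 times, and all of its calls were also made with the block. The median log2 ratio of -0.15 was -0.0183 with centred ratios and -0.0735 with cyclic loess. Leaving out a replicate gave 1241 to 1378 higher and 1331 to 1439 lower features and medians of -0.17 to -0.11. Features with 3 paired ratios of one sign made up 69.3%, and 66.9% to 74.1% under the alternatives. No feature called in one direction was called in the other under any of them.

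Over the 37 named features and the 4 printed by identifier, 330 of 364 alternative values kept direction and side of the threshold, 14 were no longer called, 6 were newly called and 14 changed sign, all of these among features not called. With centred ratios rdx had a log2 ratio of 0.0727, Wdr24 0.0489 and Polr3K and Tcs1 0.0123. With cyclic loess rdx had 0.0220 and kis -0.0513, and with quantile normalization repeated kis had -0.137 and CG42497 and Tim10 -0.0467. Leaving out a replicate gave -0.261 to 0.0747 for rdx, -0.368 to 0.337 for kis, -0.153 to 0.115 for CG42497 and Tim10, -0.215 to 0.0573 for Polr3K and Tcs1, -0.728 to 0.232 for Mocs2A and Mocs2B and -0.0160 to 0.142 for CG33995, CG44001 and CG44000. The causes were not tested. Without the replicate block, CG5116 and CG42488 (adjusted p = 0.080), sle (0.12), fend (0.062) and the PIG-M feature (0.060) were not called.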
